A study of Mus musculus with 2 samples.

Results

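Expression of 10 S100 genes, which encode small calcium-binding proteins, was compared between uncultured mouse lung and cultured mouse embryonic fibroblasts (MEF). The genes were S100a1, S100a3, S100a4, S100a6, S100a8, S100a9, S100a10, S100a11, S100a13 and S100g, taken by gene symbol from 19532 genes with a value on both arrays, and all 10 were found. They were covered by 11 probes: S100a4 had 2 and the other 9 genes had 1 each. Lung RNA labelled with Cy3 shared each of 2 Agilent arrays with Cy5-labelled MEF RNA. The lung cells, called 1 and 2 in the labels, were untreated and went without culture, and the MEF, fibroblasts derived from mouse embryos, were kept in serum-supplemented DMEM. No strain, age or genotype is given for either, nor whether the lung samples came from separate animals or the arrays shared a MEF preparation, so all p-values measure only the spread between these 2 arrays, which may be technical.

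Each deposited value is a log ratio of the 2 channels, given here as a log2 ratio of lung over MEF, so that a value of 1 is a 2-fold higher level in lung. The direction is likely rather than stated. The titles and the design name lung against MEF, and all 22 values of 11 lung epithelial genes (surfactant and club cell genes among them) were above 0, whereas red over green, Agilent's convention, would put MEF on top. Base 2 was likewise read from the size of the values, which reach 10.1; were they natural logarithms, every fold would be larger. By the test given below, 10 of 10 fibroblast marker genes were lower in lung (43.6% of all genes), with a median of -4.81. All 8 endothelial markers were higher (32.6% of all genes), with a median of 4.49. The log ratios are not centred: the median over probes was -0.28 on lung replicate 1 and -0.14 on lung replicate 2. As a yardstick for ratios of genes that neither tissue is known to use, 1043 olfactory and vomeronasal receptor genes were taken. Their central 95%, called the receptor range, was bounded by -1.39 and 1.22 for lung replicate 1, and by -1.44 and 1.24 for lung replicate 2. A gene was counted above or below the range only where it lay there on both arrays, and inside it otherwise.

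S100 proteins are small proteins with a pair of EF-hands, the helix-loop-helix motif that holds calcium; most form dimers, whereas calbindin-D9k, the product of S100g, is a monomer. Binding of calcium opens a surface through which most of them bind other proteins, such as annexins and cytoskeletal myosin, and several are also released from cells and act on the receptors RAGE (Ager) and TLR4. The family is used in a cell-type-restricted way: S100A8 and S100A9 fill the cytosol of neutrophils, whereas S100A4 and S100A6 are well known from fibroblasts and other motile cells. In bulk RNA such as this, fewer cells of a type and less RNA per cell cannot be told apart.

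The 250 bases upstream of the RefSeq transcription start (GRCm38.p6) are shown for the 3 genes furthest above MEF, S100a8, S100g and S100a9, and for S100a4, which had the lowest mean ratio by a small margin over S100a3. Capitals mark matches to TATAAA (the TATA box) and to TTGCNNAA (a C/EBP motif), on either strand. S100a8 lies on the plus strand at chr3:90668821-90669070, S100a9 on the minus strand at chr3:90695722-90695971, S100g on the minus strand at chrX:162964600-162964849 and S100a4 on the plus strand at chr3:90603520-90603769.
S100a8: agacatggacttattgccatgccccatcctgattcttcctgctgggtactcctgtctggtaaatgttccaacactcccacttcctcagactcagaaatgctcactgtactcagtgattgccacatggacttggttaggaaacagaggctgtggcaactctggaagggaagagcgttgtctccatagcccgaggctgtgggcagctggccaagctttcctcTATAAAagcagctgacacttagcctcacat
S100a9: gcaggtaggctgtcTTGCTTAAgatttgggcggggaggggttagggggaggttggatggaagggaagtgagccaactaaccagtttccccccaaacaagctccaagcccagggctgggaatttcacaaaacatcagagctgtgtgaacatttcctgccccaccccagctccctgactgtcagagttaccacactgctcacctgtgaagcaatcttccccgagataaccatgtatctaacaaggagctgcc
S100g: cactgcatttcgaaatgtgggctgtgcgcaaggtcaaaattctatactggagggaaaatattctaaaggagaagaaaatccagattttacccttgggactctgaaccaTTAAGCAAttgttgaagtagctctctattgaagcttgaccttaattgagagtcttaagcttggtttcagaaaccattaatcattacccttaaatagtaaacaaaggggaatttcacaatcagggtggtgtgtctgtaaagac
S100a4: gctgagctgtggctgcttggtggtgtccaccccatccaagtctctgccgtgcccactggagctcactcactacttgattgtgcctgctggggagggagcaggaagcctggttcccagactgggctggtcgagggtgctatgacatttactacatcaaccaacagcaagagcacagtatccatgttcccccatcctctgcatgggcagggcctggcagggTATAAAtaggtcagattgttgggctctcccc

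S100a8 and S100a4 both carried TATAAA, beginning 30 and 31 bases before the start, and 1 of the 4 starts of S100a3 carried it at 52 bases. S100a8 had the highest mean ratio of the members, and S100a3 and S100a4 had the 2 lowest means, with S100a3 the lower on lung replicate 1 and S100a4 on lung replicate 2. S100a9 and S100g each carried a TTGCNNAA match, 236 and 142 bases before the start, and no TATAAA, and the other 7 members with a promoter in the table carried no TTGCNNAA. The third motif searched, TGANTCA (AP-1), was found only in S100a11 among the 9 members with a promoter in the table, where it occurred 2 times. Of all 32851 upstream windows of this length, 12.4% held TATAAA, 9.56% TTGCNNAA and 6.75% TGANTCA. Among the 12 windows of the 9 members, which include all starts of S100a3 and overlapping windows of S100a1 and S100a13, these numbers were 3, 2 and 1.

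Of the 10 S100 genes, 8 were higher and 2 lower in lung with an adjusted p under 0.05 (limma's moderated test against 0, Benjamini-Hochberg over all genes). Over all genes the same test called 32.6% higher and 43.6% lower in lung, so that passing it says little without the size of the ratio. Of the 1043 receptor genes, it called 63 higher and 547 lower in lung, and their median log2 ratio was -0.42. With another centring of the arrays the balance of calls over all genes shifts: 42.8% of calls were higher in lung as deposited, 54.0% with each array centred on its median and 63.6% with each array centred on the receptor genes. By size, 6 of the S100 genes reached a 2-fold higher level in lung on each array (17.1% of all genes) and 0 at least 2-fold lower (15.4% of all genes). Above the receptor range on both arrays lay 5 S100 genes (14.6% of all genes), and 0 lay below it (8.91% of all genes). The median log2 ratio was 1.46 over the S100 genes and -0.21 over all genes.

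The S100 genes fell into a group of 3 far above the rest and a group of 7 with means from -0.55 to 2.30. S100a8, S100g and S100a9 had mean log2 ratios of 9.88, 8.72 and 7.53, and then came a gap of 5.24 to S100a1 at 2.30. Down from S100a1, S100a13 had a mean of 1.74, S100a10 of 1.18, S100a11 of 0.87 and S100a6 of 0.29. S100a3 and S100a4 stood lowest at -0.54 and -0.55. The values of neighbouring genes in this order did not overlap between arrays, except for S100a3 and S100a4. The 2 arrays differed by between 0.0015 (S100a10) and 0.40 (S100a8) for the S100 genes, with a median difference of 0.025 against 0.081 over all genes.

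**Figure D1:**
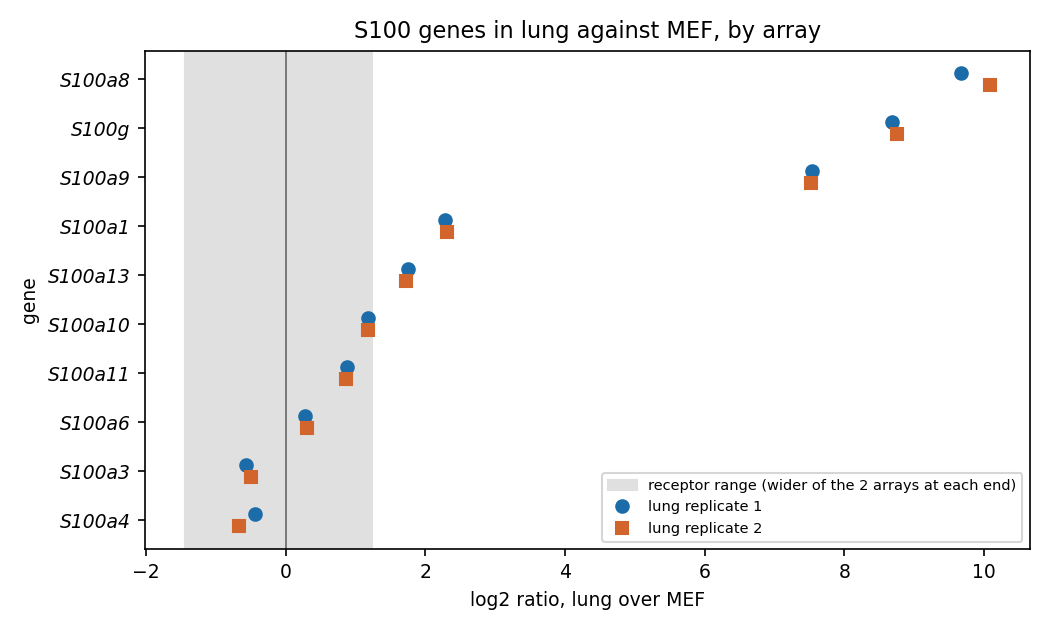
Log2 ratio of lung over MEF (horizontal axis) for each of the 10 S100 genes on lung replicate 1 (circles) and lung replicate 2 (squares), with the receptor range in grey. S100a8, S100g and S100a9 lie above 7.5 on both arrays, S100a1 and S100a13 above the grey band, and the other 5 genes inside it.

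**Figure D2:**
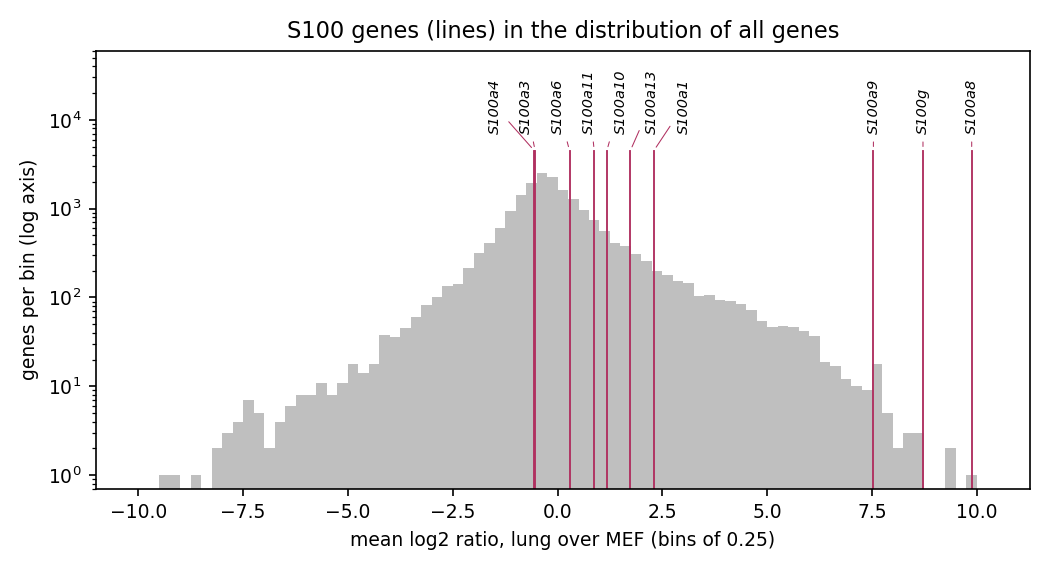
Number of genes per bin of mean log2 ratio (vertical log axis) for all 19532 genes, with a line at the mean of each S100 gene. S100a8 is the highest of all genes and S100g the 4th highest, while S100a3 and S100a4 lie close to the peak of the distribution.

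S100a8 and S100a9 are the subunits of calprotectin, a metal-chelating heterodimer abundant in neutrophils. S100a8 had log2 ratios of 9.68 and 10.08 on lung replicates 1 and 2, and a mean of 9.88 ± 0.28 (SD, n = 2), or 941-fold (limma adjusted p = 0.00164). Its mean ranked 1 among the 19532 genes. S100a9 had log2 ratios of 7.54 and 7.53 on lung replicates 1 and 2, with a mean of 7.53 ± 0.0067 (SD, n = 2), or 185-fold (limma adjusted p = 0.00161), and ranked 33. Both subunits thus stood far above the receptor range on each array, and the log2 ratio of S100a8 exceeded that of S100a9 by 2.14 on lung replicate 1 and 2.55 on lung replicate 2. A difference between ratios is no difference between levels, since the MEF level of each gene enters its own ratio and the channel intensities were not used here.

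Neutrophil markers were higher in lung together with the calprotectin genes. Of 13 measured neutrophil genes other than S100 genes, 12 passed the test as higher (32.6% of all genes) and 1 as lower (43.6% of all genes). The median was 4.69, and 11 lay above the receptor range (14.6% of all genes). Retnlg, which encodes a resistin-like protein of neutrophils, stood at 7.58, the siderophore-binding lipocalin gene Lcn2 at 6.48, the collagenase gene Mmp8 at 6.24 and the lactoferrin gene Ltf at 5.59. The integrin gene Itgam was lower at -0.93, and the myeloperoxidase gene Mpo reached 1.14, both inside the receptor range. Camp (5.20), Ngp (4.63) and Elane (2.95) lay above it. All 3 measured erythroid genes were also higher, with the alpha-globin gene Hba-a1 at 7.03, the heme synthesis gene Alas2 at 5.67 and, inside the receptor range, the anion exchanger gene Slc4a1 at 0.85. What part neutrophils or blood had in the ratios of S100a8 and S100a9 was not tested. Of the NADPH oxidase subunit genes, whose complex receives arachidonic acid from calprotectin in neutrophils, Cybb was higher (1.21) and Cyba lower (-1.20), both inside the receptor range, and Ncf1 was at 0.02 without passing the test.

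S100g encodes calbindin-D9k, a cytosolic calcium buffer best known from intestinal epithelium, where vitamin D induces it, and also known from alveolar type 2 cells of the mouse lung. S100g had log2 ratios of 8.68 and 8.76 on lung replicates 1 and 2, with a mean of 8.72 ± 0.057 (SD, n = 2), or 420.5-fold (limma adjusted p = 0.00161). It ranked 4 among all genes. Trpv6, the epithelial calcium channel through which calcium enters the cells where calbindin-D9k works in the intestine, was also higher, at 4.96 and 4.82 on lung replicates 1 and 2. Its paralog Trpv5, the renal channel, was lower at -1.06, and the vitamin D receptor gene Vdr was higher at 1.16, neither of them outside the receptor range on both arrays. S100g lies apart from the other members on the X chromosome, where it is located within the span of Ctps2, whose log2 ratios were -0.33 and -0.34 on lung replicates 1 and 2.

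S100a1 and S100a13, whose starts lie beside each other on opposite strands, were both higher in lung by less than 5-fold. S100a1, known from heart and skeletal muscle, where its protein binds ryanodine receptors and the calcium pump SERCA2, had log2 ratios of 2.29 and 2.31 on lung replicates 1 and 2 (mean 2.30 ± 0.014, SD, n = 2; 4.91-fold; limma adjusted p = 0.00163). S100a13, whose protein takes part in the release of FGF1 and interleukin 1 alpha without a signal peptide, had log2 ratios of 1.75 and 1.73 on lung replicates 1 and 2 (mean 1.74 ± 0.015, SD, n = 2; 3.33-fold; limma adjusted p = 0.00173). Both stood above the receptor range on each array. Among their partners, Fgf1 (3.36) and Ryr1 (1.97) were higher and above the receptor range, and Il1a (1.00) and Ryr2 (0.66) passed as higher but lay inside it. The SERCA2 gene Atp2a2 was at -0.08 and did not pass the test. Syt1, whose protein joins S100A13 and FGF1 in the release complex, was lower at -0.27. Syt1 also lay inside the receptor range, above the receptor gene median of -0.42.

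S100a10 and S100a11, whose proteins bind annexins at membranes, had small positive ratios. S100a10, or p11, a member that has lost calcium binding and stays bound to annexin A2, had log2 ratios of 1.18 on both arrays (mean 1.18 ± 0.0010, SD, n = 2; 2.26-fold; limma adjusted p = 0.0021). S100a11 had log2 ratios of 0.88 and 0.87 on lung replicates 1 and 2 (mean 0.87 ± 0.010, SD, n = 2; 1.83-fold; limma adjusted p = 0.00275). RefSeq lists a pseudogene, S100a11-ps, that a probe may not separate from S100a11. Both genes passed the test and both lay inside the receptor range. Anxa2, the partner of S100A10, was higher at 0.67, although its 3 probes ranged from -0.17 to 1.46. Anxa1, a partner of S100A11, was higher at 0.22, Anxa11, a partner of S100A6, was higher at 1.87, and Anxa6 was at 0.09 and did not pass. Ahnak, which encodes a giant scaffold bound by the S100A10 and annexin A2 complex, was higher at 1.06. Of these partners only Anxa11 lay above the receptor range.

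S100a6, S100a4 and S100a3 had the ratios smallest in size among the members. S100a6, or calcyclin, had log2 ratios of 0.27 and 0.30 on lung replicates 1 and 2 (mean 0.29 ± 0.020, SD, n = 2; 1.22-fold higher; limma adjusted p = 0.0144). The protein of S100a4 binds non-muscle myosin IIA and also bears the name fibroblast-specific protein (FSP1), although other motile cells have it too. S100a4 had log2 ratios of -0.44 and -0.67 on lung replicates 1 and 2 (mean -0.55 ± 0.17, SD, n = 2, 1.47-fold lower, limma adjusted p = 0.0251). Its probes gave -0.59 on both arrays for one and -0.29 and -0.75 for the other, and the second did not pass by itself (limma adjusted p = 0.0928). S100a3, known from the hair cuticle, had log2 ratios of -0.57 and -0.50 on lung replicates 1 and 2 (mean -0.54 ± 0.049, SD, n = 2; 1.45-fold lower; limma adjusted p = 0.00686). All 3 lay inside the receptor range, and the median of the receptor genes was -0.42. Channel intensities were not used, so a small ratio does not show that the levels were similar. The calls of S100a4 and S100a3 as lower were lost when the arrays were centred on their medians (adjusted p = 0.063 and 0.0805, limma) or on the receptor genes (adjusted p = 0.228 and 0.125, limma).

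S100a4 and S100a6 thus had small ratios where most fibroblast markers had strongly negative ones. Col1a1, the type I collagen chain, had a mean log2 ratio of -7.62, fibronectin (Fn1) of -5.92 and the mesenchymal factor Twist1 of -7.28. Below the receptor range lay 9 of 10 fibroblast markers (8.91% of all genes). Vim, the intermediate filament gene shared by fibroblasts, endothelium and leukocytes, was the mildest of them at -1.01. The S100A6-binding protein gene Cacybp was lower at -1.11, and Myh9, the heavy chain of the myosin that S100A4 binds, was at -0.0030 without passing the test.

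Genes of the S100 family that lie side by side on mouse chromosome 3 had widely different ratios. In the RefSeq order of protein-coding genes, the 12 genes from S100a1 to S100a9 are all S100 genes, of which 11 were measured and S100a2 was not analysed here. The first 4 of them, S100a1, S100a13, S100a14 and S100a16, all lay above the receptor range, with S100a14 at 4.48 and S100a16 at 1.33. The next measured genes, S100a3, S100a4, S100a5, S100a6 and S100a7a, had means between -0.55 and 0.29. S100a8 and S100a9 follow directly, so that S100a7a (-0.32 and -0.66 on lung replicates 1 and 2) borders the gene with the highest ratio of all. S100a11 and S100a10 lie at the far end of the same stretch, beyond the cornified envelope genes of the epidermis. Between S100a9 and S100a10, 40 genes outside the S100 family proper were measured, with a median of -0.33. Of these, 33 lay inside the receptor range, 2 above it (14.6% of all genes) and 5 below it (8.91% of all genes). Both genes above it, Rptn and Tchh, belong to the 6 measured fused-type S100 genes counted among these 40, which encode larger proteins with an S100 domain.

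**Figure D3:**
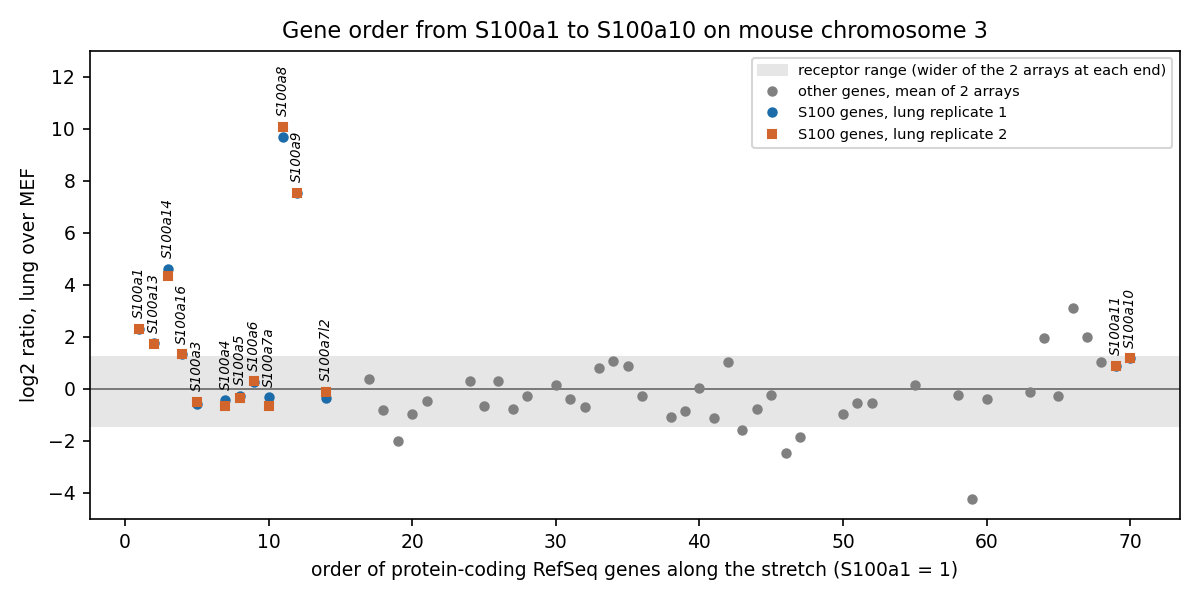
Log2 ratio of lung over MEF (vertical axis) against the order of protein-coding genes from S100a1 to S100a10 (horizontal axis), with S100 genes by array and other genes as the mean of 2 arrays. S100a8 at 9.68 and 10.08 stands beside S100a7a at -0.32 and -0.66, and most genes between S100a9 and S100a11 fall in the grey receptor range.

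Of the other 6 measured S100 genes, 3 passed the test as higher (32.6% of all genes), 1 as lower (43.6% of all genes) and 2 did not pass. S100a14, an epithelial member, had log2 ratios of 4.62 and 4.34 on lung replicates 1 and 2 (limma adjusted p = 0.0019), between the 3 highest members and S100a1. S100b, known from glia, stood at 1.45 and S100a16 at 1.33. S100a5 was lower at -0.31, and S100a7a (-0.49) and S100a7l2 (-0.24) did not pass. All 3 lay inside the receptor range, and the median of the receptor genes was -0.42, below the mean of S100a5. The median of these 6 genes was 0.54.

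The receptors and binding partners of S100 proteins had mean log2 ratios from -1.20 to 5.08, against -0.55 to 9.88 for the 10 S100 genes. Of 28 measured genes in this list, 17 were higher (32.6% of all genes) and 7 lower (43.6% of all genes) by the test. The median was 0.67, 7 genes lay above the receptor range (14.6% of all genes) and 0 below it (8.91% of all genes). Those above it were Ager, Trpv6, Cd36, Fgf1, Ryr1, Anxa11 and Alcam. Ager, which encodes RAGE and is abundant in alveolar type 1 cells, was highest with 4.92 and 5.24 on lung replicates 1 and 2. Cd36, the scavenger receptor that binds fatty acids carried by calprotectin, followed Trpv6 at 4.69. Tlr4 was higher at 0.68, but its probes disagreed, with means of 1.66 and -0.31. Basigin (Bsg), a receptor for S100A9, was lower at -1.05. Of the other 7 alveolar type 1 markers, 6 lay above the receptor range (median 5.43), and Pdpn was lower at -1.27. Macrophage markers split, with Chil3 at 7.72, Lyz2 at 2.24 and Adgre1 at -2.02 and -1.98 on lung replicates 1 and 2 (median of the list 0.31). The part of these cell types in the S100 ratios was not tested.

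**Figure D4:**
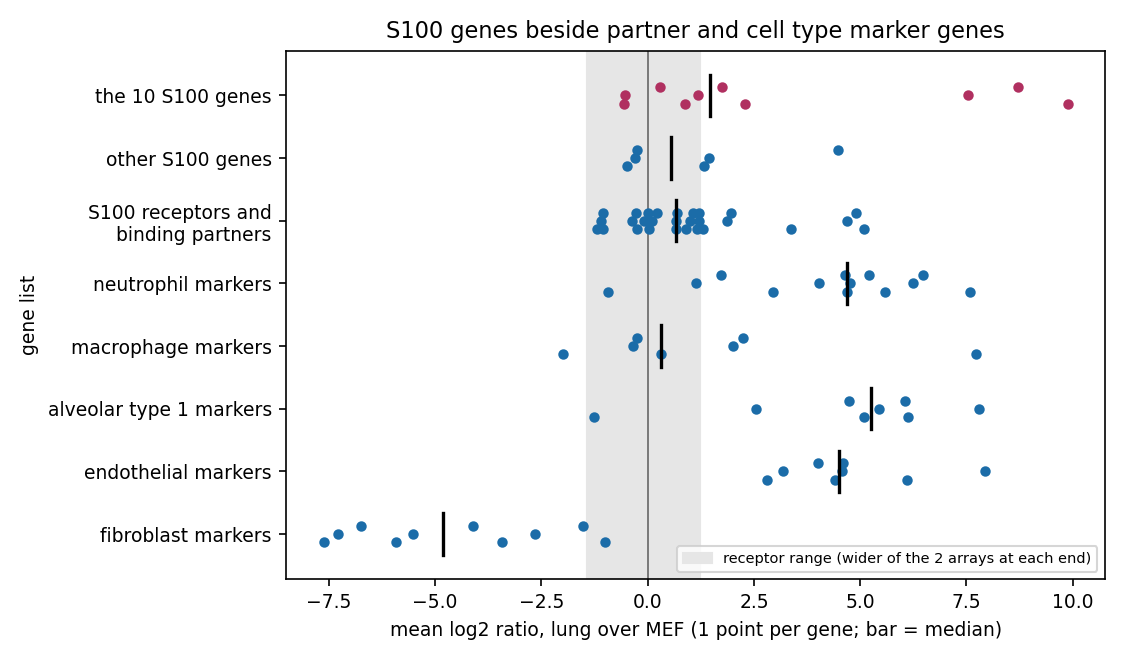
Mean log2 ratio of lung over MEF (horizontal axis), 1 point per gene, for the 10 S100 genes and 7 other gene lists, with the median of each list as a bar and the receptor range in grey. The S100 genes run from -0.55 to 9.88 around a median of 1.46, beside neutrophil markers with a median of 4.69 and fibroblast markers with a median of -4.81.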

How the data were processed

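The authors deposited 1 table of log ratios per probe and array, which were read as log2 ratios; the labels do not state the base. Agilent Feature Extraction is named per the submitters' processing notes. For its version, and for how background and dyes were corrected, nothing is given in the sources used. The table holds 41174 probes on 2 arrays without missing values. Channel intensities were not used here, so dim or saturated spots are not known. Precision is limited by the number of arrays. Dyes were not swapped, so dye effects stay in each ratio.

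Of the probes, 32664 carried 1 gene symbol in the platform annotation, 45 several and 8465 none; symbols were checked by Entrez identifier against RefSeq (GRCm38.p6; 32524 probes matched). Probes of a gene were averaged (19532 genes). With limma 3.58.1 (R 4.3.3), each gene's mean was set against 0 (intercept-only fit, eBayes, two-sided, Benjamini-Hochberg over all genes, threshold 0.05). Moderation added 1.21 degrees of freedom to the residual 1 of each gene. MEF RNA was only the reference channel, so the spread between MEF cultures is left out. The code was tested on simulated data. The members and gene lists were chosen with earlier results of these data known. Named genes were all members, all measured other S100 genes and, of the partners, the 4 highest, the 4 lowest and Ager, Tlr4 and the annexins; the partners Vdr, Cybb, Ncf1, Il1a, Ryr1, Ryr2, Atp2a2, Syt1, Ahnak, Myh9 and Alcam and the marker genes named fall outside this rule and were chosen after their values were seen. Promoter windows came from RefSeq.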

Additional observations from a re-analysis of the deposited data

How the results depend on the processing

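The log2 ratio of every S100 gene kept its sign under median and receptor centring and on either array by itself. Leaving out moderation, robust moderation and testing against a 2-fold change alter only the p-values, so the ratios could not change there. The median over probes also left them unchanged, since no S100 gene had more than 2 probes. The median of the S100 genes was 1.66 with each array centred on its median and 1.87 with receptor centring, against 1.46 as deposited, and between 1.45 and 1.46 when 1 array was left out. These centrings moved the median of all genes to 0.00 and 0.20, against -0.21. The count of S100 genes lower in lung fell to 0 with limma under median centring (1 at an unadjusted p below 0.05), under receptor centring (0 unadjusted), without moderation (1 unadjusted) and against a 2-fold change (0 unadjusted); robust moderation and testing by probe gave 2. The higher count was 7 without moderation, losing S100a6 (adjusted p = 0.0675, limma fit), and 6 against a 2-fold change, losing S100a6 and S100a11. Under median centring the moderation gave all genes a common spread, so its small p-values rest on that. At least 2-fold higher on each array were 7 S100 genes with either centring or with natural logarithms and 6 on either array alone; the count at least 2-fold lower was 0 throughout. Over all genes, 2448 were higher and 3164 lower without moderation, 2754 higher and 2242 lower against a 2-fold change, and 5225 lower with receptor centring. Each ratio already pairs lung with the MEF RNA on the same array, and no further pairing was analysed. Without intensities, it is unknown how far a dim MEF signal limits the ratios of S100a8, S100a9 and S100g.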

Other observations

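The fused-type S100 genes, which encode large proteins of the skin and hair follicle with an S100 domain at their start, had scattered values. Of 6 measured genes, 3 passed limma's test as higher (32.6% of all genes), 1 as lower (43.6% of all genes) and 2 did not pass. Rptn (repetin) had log2 ratios of 2.60 and 3.59 on lung replicates 1 and 2, Tchh (trichohyalin) of 2.29 and 1.70, and Tchhl1 of 1.30 and 0.76. Hrnr (hornerin) was lower at -0.26, inside the receptor range and above the receptor gene median of -0.42. Filaggrin (Flg) had 0.86 and 3.02 on lung replicates 1 and 2 and did not pass, and Flg2 had 0.77 and -1.02, on opposite sides of 0. The arrays thus differed by 2.16 for Flg and 1.79 for Flg2, against at most 0.40 for the 10 S100 genes.

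The genes whose pair of values lay nearest to S100a8, by Euclidean distance over the 2 arrays, were Il18r1 at 0.68, Ear10 at 0.88 and Ces1d at 1.66. Nearest to S100a4 were Fam83c, Olfr95 and Gpr50, all within 0.018. With 2 arrays, this likeness describes the size of the ratio and little else.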
